A study of Mus musculus with 36 samples.

Results

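Female mouse primordial germ cells (PGCs) were followed across early meiotic prophase by comparing control PGCs of female fetuses at E16.5 (E16.5F; E counts embryonic days) with those at E13.5 (E13.5F). The samples were taken by their labels: 3 E13.5F PGCs control and 3 E16.5F PGCs control, 6 of the 36 RNA-seq samples of the series. The study asks how intrauterine hyperglycemia (IUHG) affects fetal germ cells, and these 6 samples come from dams of its control group. All groups used here carried the genotype label WT, and PGCs were sorted from digested gonads as Oct4-EGFP-positive cells, pooled from 20 to 30 fetuses each, so a sample is a pool and not an animal. Sex was assigned by a PCR for Sry or by gonad shape.

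Besides the 6 samples, 3 groups of control PGCs serve as reference: E12.5 PGCs (3 samples, sexes not separated by the label), E13.5M PGCs and E16.5M PGCs from male fetuses (3 samples each). E13.5F and E16.5F PGCs of the IUHG group (3 samples each) came from dams given streptozotocin (STZ) at 120 mg/kg on E3.5 and kept when blood glucose passed 14 mM on E6.5. The Oct4-EGFP reporter is itself a transgene of a pluripotency gene, so the sort selects cells in which that reporter is still detectable.

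Female germ cells stop dividing by mitosis in the fetal ovary, copy their DNA a last time and enter meiosis. In the prophase that follows, chromosomes form an axis of cohesin and HORMA-domain proteins, breaks are cut into the DNA, homologous chromosomes are zipped together by the synaptonemal complex, and some breaks mature into crossovers. Oocytes then arrest in the dictyate stage until the adult ovary recruits them. Entry into meiosis depends on signals from the somatic cells of the ovary, among them bone morphogenetic proteins (BMP) and retinoic acid, and on the germ cell factor STRA8 with its partner MEIOSIN.

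Expression was given as TPM, a length-scaled share of each sample's transcripts that adds to the same total in every sample. The samples held 5.80, 5.27 and 3.44 gigabases of aligned sequence at E13.5F and 5.10, 5.11 and 5.19 gigabases at E16.5F, as worked out from the ratio of coverage to FPKM. E13.5F replicate 3 was the shallowest. Genes listed at 1 TPM or more numbered 14523, 14775 and 15035 at E13.5F and 16864, 16890 and 17096 at E16.5F. The share of mitochondrial transcripts was 2.83%, 2.28% and 2.33% at E13.5F and 2.68%, 2.49% and 2.68% at E16.5F. Across genes, Pearson's r of log2(TPM + 1) was 0.980 to 0.984 among E13.5F samples, 0.956 to 0.962 among E16.5F samples and 0.857 to 0.864 between stages, with genes not being independent replicates.

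The labels were checked against markers. The Y-linked genes Eif2s3y and Uty were listed at 0 in all 6 samples, and Ddx3y and Kdm5d stayed under 0.1 TPM. Of the genes placed on chromosome Y 2 others passed the filter, of which 1 was called higher. Xist, the RNA that silences an X chromosome in female cells, was listed at 0.260, 0.291 and 0.406 TPM at E13.5F and at 2.16, 1.89 and 1.37 TPM at E16.5F. Every E16.5F sample was above every E13.5F sample for Xist, and the difference missed the call (adjusted p = 0.012). The germ cell genes Ddx4 and Dazl were abundant in all 6 samples, at 527, 437 and 605 TPM and 1962, 1962 and 2043 TPM at E13.5F and at 368, 359.7 and 362 TPM and 1361, 1150 and 1182 TPM at E16.5F.

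Between E13.5F and E16.5F, 22 of 28 tested pluripotency and early PGC factors fell, as did Stra8 and Rec8. Rises were found in 4 of 11 genes of the synaptonemal complex and HORMA axis, 10 of 16 crossover genes, 6 of 8 oocyte transcription factors and 10 of 21 genes of the piRNA pathway. Transcripts for DNA replication, mitosis and glycolysis were lower at E16.5F in 14 of 30, 9 of 25 and 13 of 19 tested genes. Of all genes 18.4% rose and 9.78% fell. A gene was called when limma gave a Benjamini-Hochberg adjusted p under 0.01 and a log2 fold change of more than 1 on log2(TPM + 1). In bulk samples, fewer cells of a type and less RNA per cell cannot be told apart.

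Of 17988 genes with a mean of at least 1 TPM at either stage, 3307 rose (18.4%) and 1760 fell (9.78%). The groups of 3 did not overlap for 11085 genes (61.6%). They did not overlap for any of the 3307 genes called higher or the 1760 called lower. For a called gene, the lack of overlap mentioned below is therefore a description that adds nothing to the call. With 3 against 3 samples, an exact permutation test cannot give a two-sided p below 0.1, so calls rest on limma, which shares the spread across genes. Genes that rose made up 5.73% of summed TPM at E13.5F and 18.7% at E16.5F, whereas genes that fell went from 18.2% to 5.69%. Of the genes that rose, 1062 had a mean under 1 TPM at E13.5F, and of those that fell, 382 had a mean under 1 TPM at E16.5F. Such genes could pass the filter only through the stage where they were high.

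The balance of rises and falls depended on scaling. The median log2 fold change of all genes was 0.31 on TPM, 0.09 after median-of-ratios scaling, 0.06 after quantile normalization and 0.12 on FPKM, so changes are read against these shifts. Higher genes made up 65.3% of calls on TPM, 51.2% after median-of-ratios scaling, 47.5% after quantile normalization and 56.9% on FPKM. After median-of-ratios scaling, 2521 of the genes that rose on TPM (76.2%) kept the call, as did all 1760 that fell, and none of the called genes changed sign. Of all genes 14.0% were called higher and 13.4% lower after that scaling. List counts after it are given beside each list where they differ, and are to be read against these shares.

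**Figure D1:**
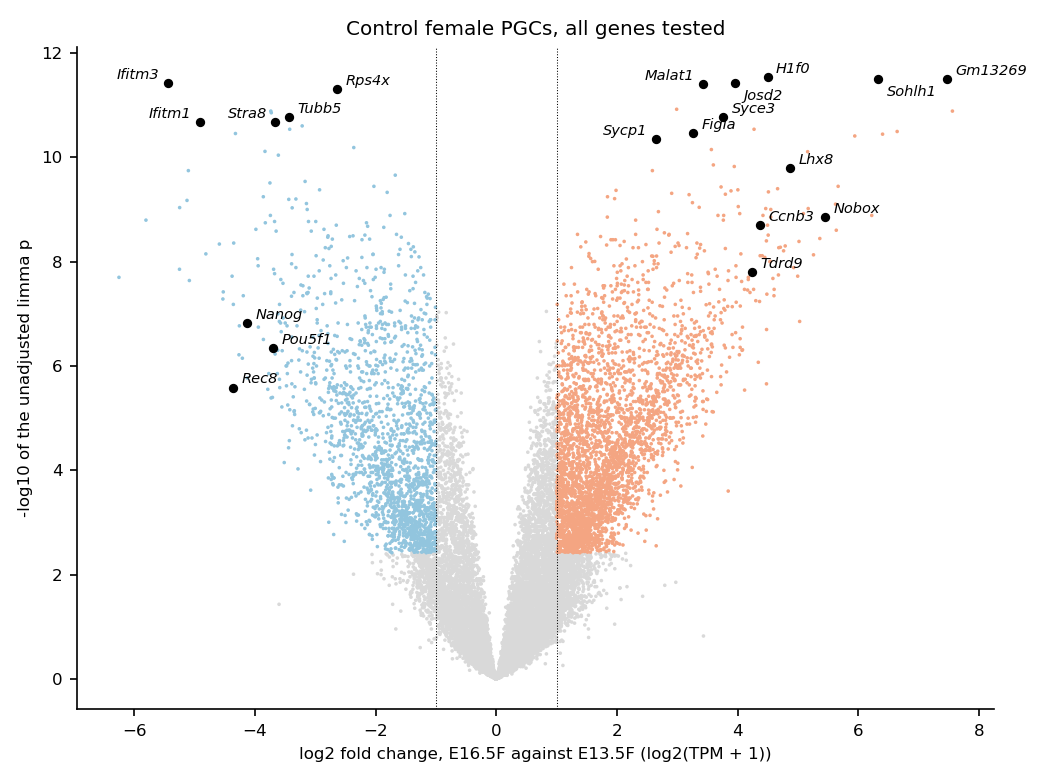
Log2 fold change of E16.5F against E13.5F control PGCs (x axis, log2(TPM + 1)) and minus log10 of the unadjusted limma p (y axis) for the 17988 tested genes. Red points are the 3307 genes called higher, blue points the 1760 called lower, grey points the others, and black points are labelled genes such as Sohlh1 at 6.33 and Ifitm3 at -5.44.

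Sohlh1, H1f0, Gm13269, Josd2, Malat1 and Ergic3 were the 6 rising genes with the lowest p among those of at least 10 TPM. H1f0, which encodes the replacement linker histone H1.0, was listed at 24.8, 25.5 and 22.0 TPM at E13.5F and at 553, 593 and 548 TPM at E16.5F (log2 fold change 4.50, SE 0.11, adjusted p = 1.2e-08). Josd2, a deubiquitinase gene, was listed at 39.5, 40.5 and 43.2 TPM at E13.5F and at 671, 676 and 615 TPM at E16.5F (log2 fold change 3.96, SE 0.10, adjusted p = 1.2e-08). In both, the lowest E16.5F sample was more than an order of magnitude above the highest E13.5F sample. The nuclear long noncoding RNA Malat1 was listed at 230.4, 241 and 272 TPM at E13.5F and at 2611, 2826 and 2557 TPM at E16.5F (log2 fold change 3.42, SE 0.08, adjusted p = 1.2e-08). Ergic3, whose product cycles between the endoplasmic reticulum and the Golgi, was listed at 95.4, 97.2 and 94.6 TPM at E13.5F and at 740.4, 792 and 771 TPM at E16.5F (log2 fold change 2.99, SE 0.08, adjusted p = 2.4e-08). Again all 3 E16.5F samples stood above all 3 E13.5F samples. Gm13269, on chromosome 2 in the files' annotation, was listed at 0.128, 0 and 0 TPM at E13.5F and at 188, 192 and 172 TPM at E16.5F. It was at 0 in E13.5F replicates 2 and 3, so it went from near absence to a level above 170 TPM in each E16.5F sample.

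The 6 falling genes with the lowest p were Ifitm3, Rps4x, Dppa5a, Ifitm2, Tubb5 and Ifitm1. Of these, 3 encode interferon-induced transmembrane proteins, of which Ifitm1 and Ifitm3 are classic surface markers of early PGCs. Ifitm3 was listed at 466, 572 and 595 TPM at E13.5F and at 12.48, 10.6 and 11.4 TPM at E16.5F (log2 fold change -5.44, SE 0.13, adjusted p = 1.2e-08). Ifitm1 was listed at 1202, 1322 and 1335 TPM at E13.5F and at 47.9, 46.5 and 32.5 TPM at E16.5F (log2 fold change -4.91, SE 0.14, adjusted p = 2.5e-08). Ifitm2 was listed at 1238, 1436 and 1242 TPM at E13.5F and at 103, 104 and 86.0 TPM at E16.5F (log2 fold change -3.73, SE 0.11, adjusted p = 2.4e-08). All 3 genes fell to a small part of their E13.5F level in every E16.5F sample. Tubb5, a beta-tubulin gene, was listed at 749.8, 710.5 and 734 TPM at E13.5F and at 73.7, 61.3 and 65.7 TPM at E16.5F (log2 fold change -3.43, SE 0.10, adjusted p = 2.4e-08), and Rps4x, an X-linked ribosomal protein gene, at 2092, 2193 and 2178 TPM at E13.5F and at 352, 338 and 344 TPM at E16.5F (log2 fold change -2.64, SE 0.07, adjusted p = 1.3e-08). Both had tight replicates at each stage.

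Pluripotency and early PGC factors made up the list with the most falls: 22 of 28 tested members fell (78.6%, against 9.78% of all genes) and 0 rose, with a median log2 fold change of -3.15 against 0.31 for all genes (24 fell after median-of-ratios scaling). Nanog, a core pluripotency factor, was listed at 17.1, 15.1 and 26.9 TPM at E13.5F and at 0.494, 0 and 0 TPM at E16.5F (log2 fold change -4.14, SE 0.31, adjusted p = 5.2e-06). Sox2, its partner in pluripotent cells, was listed at 22.9, 21.4 and 24.7 TPM at E13.5F and at 1.04, 1.84 and 3.24 TPM at E16.5F (log2 fold change -3.04, SE 0.28, adjusted p = 2e-05). No E16.5F sample came near the E13.5F range for either gene, and Nanog was listed at 0 in E16.5F replicates 2 and 3. Tfap2c, which specifies PGCs together with Prdm1, was listed at 28.2, 25.2 and 30.0 TPM at E13.5F and at 1.39, 0.416 and 0 TPM at E16.5F (log2 fold change -4.26, adjusted p = 5.6e-06). Prdm1, which represses somatic genes in new PGCs, was listed at 11.2, 8.03 and 8.95 TPM at E13.5F and at 0.0951, 0.758 and 0.132 TPM at E16.5F (log2 fold change -2.99, adjusted p = 3.1e-05). Their E16.5F values were all under 2 TPM.

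Dppa3 (also called Stella), a maternal factor that guards against demethylation in the zygote, was the most abundant member at E13.5F. It was listed at 1850, 2229 and 1889 TPM at E13.5F and at 253, 227 and 184 TPM at E16.5F (log2 fold change -3.17, SE 0.12, adjusted p = 1.5e-07), and the highest E16.5F sample was far below the lowest E13.5F sample. Dppa5a, an RNA-binding protein gene of pluripotent cells, was listed at 1541, 1696 and 1607 TPM at E13.5F and at 139.7, 110.2 and 112 TPM at E16.5F (log2 fold change -3.74, adjusted p = 2.4e-08). Pou5f1, the gene that encodes Oct4, was listed at 88.5, 104 and 142 TPM at E13.5F and at 13.6, 5.64 and 5.34 TPM at E16.5F (log2 fold change -3.70, adjusted p = 1.1e-05). Since the cells were sorted by an Oct4 reporter, the Pou5f1 level is given as a description. The 6 members that were not called included Kit, the receptor for the growth factor KITL that oocytes keep, at a log2 fold change of 0.14, a gene chosen after its values were seen. Summed over the list, TPM was 6644, 7350 and 7092 TPM at E13.5F and 725, 642 and 609.5 TPM at E16.5F.

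Of 15 tested regulators of meiotic entry, 7 fell (46.7%, against 9.78% of all genes) and 2 rose (13.3%, against 18.4%), with a median of -0.70 (7 and 0 after median-of-ratios scaling). Stra8, the retinoic acid target that switches on the meiotic program, was listed at 1936, 1718 and 1841 TPM at E13.5F and at 161, 123 and 149.8 TPM at E16.5F (log2 fold change -3.66, SE 0.11, adjusted p = 2.5e-08). Rec8, which encodes the meiotic cohesin subunit that joins sister chromatids, was listed at 88.4, 86.5 and 88.9 TPM at E13.5F and at 9.32, 2.42 and 1.27 TPM at E16.5F (log2 fold change -4.37, SE 0.45, adjusted p = 3.5e-05). Stra8 was still above 100 TPM in all 3 E16.5F samples, while Rec8 was under 10 TPM, and neither gene's groups overlapped. Meiosin, which encodes the DNA-binding partner of STRA8, was listed at 204, 168 and 217 TPM at E13.5F and at 219.6, 232 and 253 TPM at E16.5F. Its groups did not overlap, but its log2 fold change of 0.26 was not called (adjusted p = 0.082) and was near 0 with a minus sign after median-of-ratios scaling. Dazl, an RNA-binding protein that licenses germ cells for meiosis, had a log2 fold change of -0.70 that stayed inside the fold limit of a call. Dmrtc2, a DM-domain factor gene, rose from 176, 172 and 188 TPM to 417, 425 and 442 TPM (log2 fold change 1.26, adjusted p = 2.9e-06), with a log2 fold change of 0.99 after median-of-ratios scaling that no longer met the call.

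Genes that respond to BMP and retinoic acid were mostly lower at E16.5F, with 10 of 17 tested members called lower (58.8%, against 9.78% of all genes), 1 called higher and a median of -1.41. Msx2, a homeobox target of BMP signalling, was listed at 54.6, 61.8 and 62.6 TPM at E13.5F and at 11.3, 4.00 and 2.40 TPM at E16.5F (log2 fold change -3.35, SE 0.39, adjusted p = 7.7e-05). Its E16.5F replicates ranged widely, but all were below the E13.5F range. Id1, an inhibitor of basic helix-loop-helix factors and also a BMP target, moved the other way and was listed at 421, 506 and 462 TPM at E13.5F and at 1836, 1829 and 1738 TPM at E16.5F (log2 fold change 1.96, SE 0.08, adjusted p = 2.1e-07). Id1 was by far the most abundant of these genes at E16.5F, and its groups did not overlap. Summed over the list, TPM was 2109, 2423 and 2346 TPM at E13.5F and 3039, 2998 and 2857 TPM at E16.5F. The sum was thus higher at E16.5F although most members were lower. The list shares Msx1, Msx2, Gata2 and Zglp1 with the regulators of meiotic entry, so these falls count in both.

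Promoters are shown for genes that rose and genes that fell together, because short motifs are known for repressors of meiotic genes in other cells, among them the E-box bound by MGA with MAX and the motif of E2F6. The sequences are from RefSeq on build GRCm38.p6, read 5' to 3' on the strand of the gene and covering the 250 bases before the annotated start. Capitals mark the E-box CACGTG or the E2F6 motif GCGGGAA, searched on both strands, so the latter also appears in its reverse complement. A further 3 motifs were searched, the cyclic AMP element TGACGTCA, the NOBOX element TAATTG and the TATA box TATAAA, and none of these lies in the 6 windows printed. Of all 32851 windows of the table, 7.15% held the E-box, 4.60% the E2F6 motif, 1.79% the cyclic AMP element, 8.00% the NOBOX element and 13.6% the TATA box. Of the 14352 windows of tested genes, 9.82% held the E-box and 8.10% the E2F6 motif. These shares were counted over the whole sequence given for each window and were not limited to the 250 bases before the start.
Sycp3, chr10:88459337-88459586, plus strand: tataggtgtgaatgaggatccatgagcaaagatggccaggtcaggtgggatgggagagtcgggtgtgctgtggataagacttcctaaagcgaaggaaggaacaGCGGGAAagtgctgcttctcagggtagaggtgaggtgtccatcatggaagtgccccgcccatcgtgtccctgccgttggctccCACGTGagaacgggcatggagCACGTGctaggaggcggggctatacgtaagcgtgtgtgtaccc
Smc1b, chr15:85131958-85132207, minus strand: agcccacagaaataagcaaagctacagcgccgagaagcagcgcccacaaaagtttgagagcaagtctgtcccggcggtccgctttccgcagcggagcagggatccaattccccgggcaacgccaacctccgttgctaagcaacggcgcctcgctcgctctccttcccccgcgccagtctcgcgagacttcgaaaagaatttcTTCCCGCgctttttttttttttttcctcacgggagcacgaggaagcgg
Rnf212, chr5:108775028-108775277, minus strand: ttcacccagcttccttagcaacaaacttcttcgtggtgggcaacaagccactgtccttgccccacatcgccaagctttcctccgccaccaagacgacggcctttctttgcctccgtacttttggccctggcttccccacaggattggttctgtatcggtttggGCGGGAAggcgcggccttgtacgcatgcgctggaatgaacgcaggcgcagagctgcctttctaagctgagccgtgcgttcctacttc
Sohlh1, chr2:25847249-25847498, minus strand: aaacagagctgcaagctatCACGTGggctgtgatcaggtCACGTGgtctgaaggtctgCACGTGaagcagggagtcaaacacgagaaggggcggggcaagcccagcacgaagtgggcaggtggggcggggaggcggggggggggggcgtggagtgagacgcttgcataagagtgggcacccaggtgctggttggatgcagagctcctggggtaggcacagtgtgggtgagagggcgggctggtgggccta
Stra8, chr6:34920698-34920947, plus strand: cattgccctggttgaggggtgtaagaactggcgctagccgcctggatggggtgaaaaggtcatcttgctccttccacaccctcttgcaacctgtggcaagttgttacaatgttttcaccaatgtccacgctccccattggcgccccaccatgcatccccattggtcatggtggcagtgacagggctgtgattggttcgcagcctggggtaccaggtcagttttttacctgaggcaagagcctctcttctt
Rec8, chr14:55617916-55618165, plus strand: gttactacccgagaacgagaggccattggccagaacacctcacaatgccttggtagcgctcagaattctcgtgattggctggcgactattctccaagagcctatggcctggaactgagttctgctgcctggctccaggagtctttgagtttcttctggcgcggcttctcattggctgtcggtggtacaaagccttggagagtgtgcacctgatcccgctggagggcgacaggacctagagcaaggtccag

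Sycp3 held an E-box 43 and another 64 bases before the start, with an E2F6 motif 147 bases before it. Smc1b and Rnf212 held an E2F6 motif, 48 and 87 bases before the start, and Sohlh1 held 3 E-boxes, 192, 211 and 231 bases before its own. Stra8 and Rec8, which fell, held none of the 5 motifs in these windows. The 6 windows do not set a pattern for rises and falls: among other named genes Tubb5, Tyms and Rpa1, which fell, held an E-box, and H1f0, Figla, Lhx8, Nobox, Spata22 and Rad21l, which rose, held none of the 5. Each match is a description, not a site or a cause, and no match says only that the letters are not in the window. Windows were found for 62.8% of the tested genes, 62.8% of those that rose and 68.4% of those that fell, which is under 80%, so a comparison of motif shares or base composition between these sets is void and none is drawn.

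**Figure D2:**
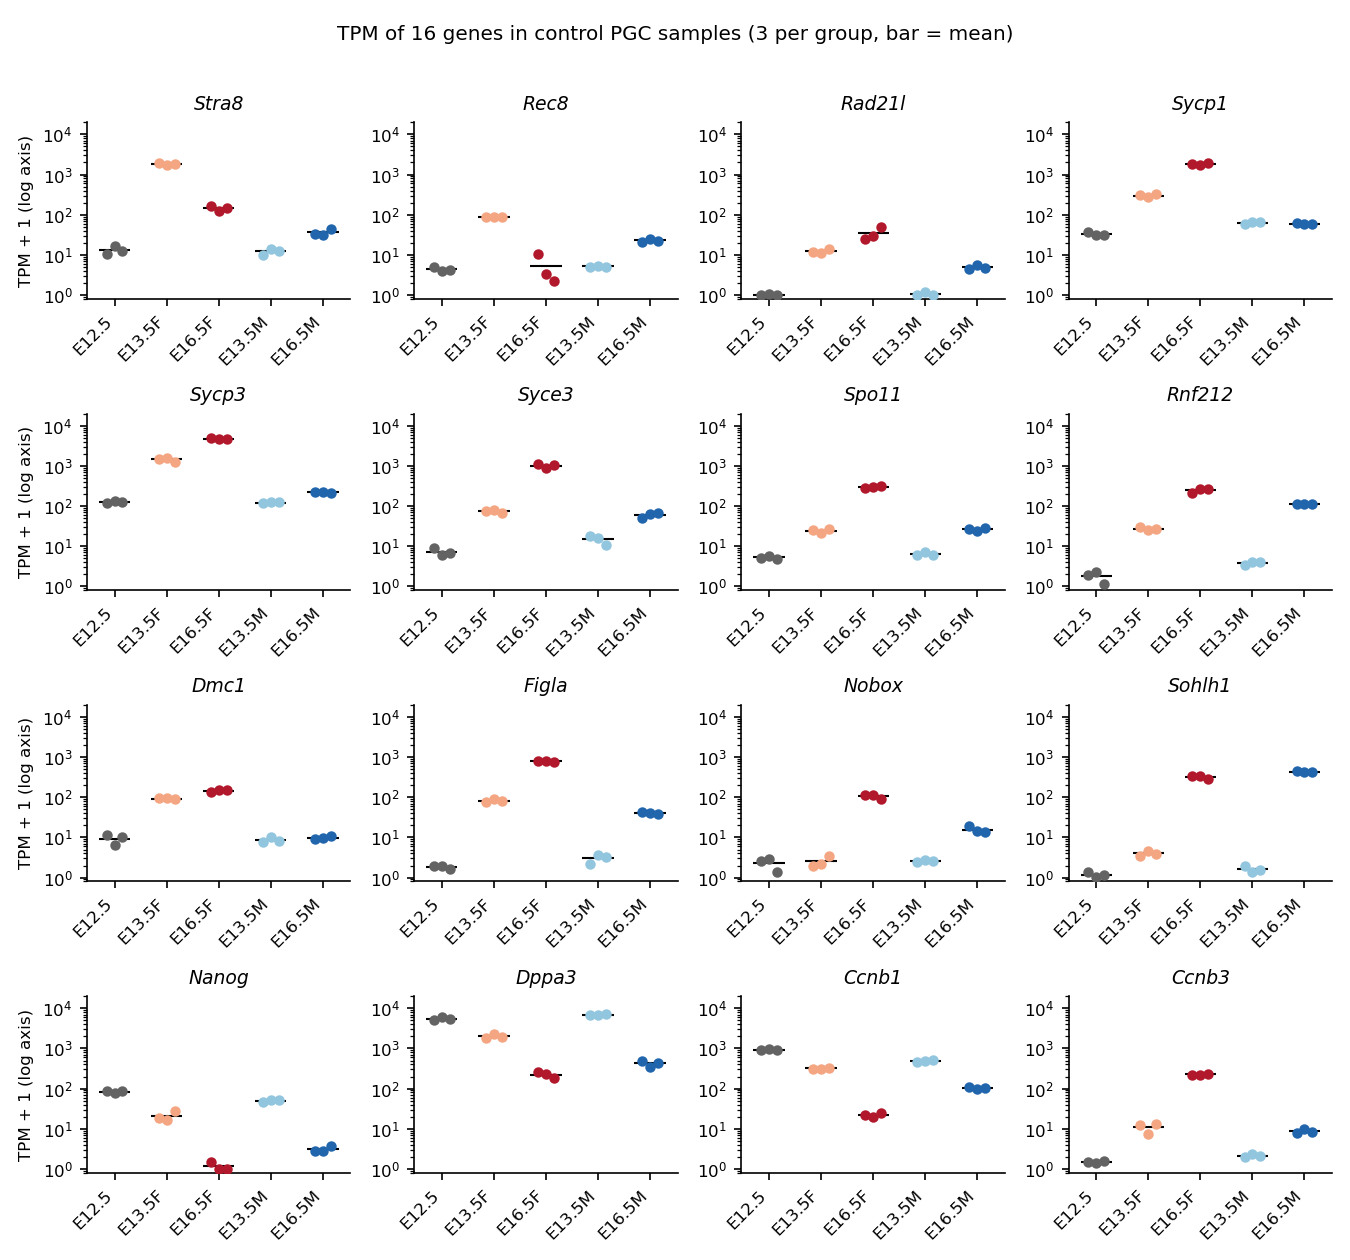
TPM + 1 on a log axis (y axis) of 16 genes in control PGCs of 5 groups (x axis), with 1 point per sample, 3 per group, and a bar at the mean. In the E16.5F samples Stra8 lies between 123 and 161 TPM, under its E13.5F range, and Sycp1 between 1776 and 1919 TPM, above it.

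Of 14 tested cohesin genes, 2 were called higher (14.3%, against 18.4% of all genes) and 3 lower (21.4%, against 9.78%), with 9 not called, around a median of -0.27 (1 and 5 after median-of-ratios scaling). Rad21l, which encodes the other meiosis-specific kleisin besides REC8, was listed at 10.7, 10.3 and 13.0 TPM at E13.5F and at 23.4, 29.2 and 48.9 TPM at E16.5F (log2 fold change 1.44, SE 0.26, adjusted p = 0.0012). Thus Rad21l was higher and Rec8 lower in every E16.5F sample, with no overlap between stages for either. Without the filter on low values Rad21l had an adjusted p of 0.013 and was not called. Smc1b, the meiotic SMC subunit, was listed at 452, 408 and 430.1 TPM at E13.5F and at 857, 868 and 917 TPM at E16.5F (log2 fold change 1.03, SE 0.08, adjusted p = 4.9e-06), and its log2 fold change of 0.77 after median-of-ratios scaling and 0.89 on FPKM fell short of the call, as it narrowly did without E13.5F replicate 2. Stag3, the meiotic stromalin gene, was listed at 219, 145 and 195 TPM at E13.5F and at 220.5, 199.6 and 241 TPM at E16.5F, with overlapping groups and no call.

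In the synaptonemal complex and HORMA axis, 4 of 11 tested genes rose (36.4%, against 18.4% of all genes) and 0 fell, around a median of 0.53, and the counts were the same after median-of-ratios scaling. Sycp1, the transverse filament that bridges homologs, was listed at 304, 269 and 319 TPM at E13.5F and at 1869, 1776 and 1919 TPM at E16.5F (log2 fold change 2.64, SE 0.08, adjusted p = 3.3e-08). Syce3, a central element protein that loads onto SYCP1, was listed at 75.7, 76.8 and 67.7 TPM at E13.5F and at 1109, 887 and 1045 TPM at E16.5F (log2 fold change 3.77, SE 0.11, adjusted p = 2.4e-08). These central region genes therefore had no overlap between stages, and Syce3 had the largest fold change of the list. Sycp3, which builds the axial element, was listed at 1480, 1596 and 1257 TPM at E13.5F and at 4982, 4630 and 4694 TPM at E16.5F (log2 fold change 1.73, SE 0.09, adjusted p = 5.4e-07). Sycp2, its partner on the axis, was listed at 33.2, 29.8 and 36.4 TPM at E13.5F and at 139.5, 126 and 133 TPM at E16.5F (log2 fold change 1.98, SE 0.13, adjusted p = 2e-06). Sycp3 was already above 1000 TPM in each E13.5F sample, a higher level than Syce3, while Sycp2 was below Syce3 there. Hormad1, which marks unsynapsed axes, had a log2 fold change of 0.73 and was not called, with 885, 896 and 886 TPM before and 1518, 1430 and 1492 TPM after. Hormad2 was listed at 109, 101 and 112 TPM at E13.5F and at 106, 106 and 115 TPM at E16.5F, with overlapping groups. Summed TPM of the list was 4890, 5018 and 4622 TPM at E13.5F and 12480, 11200 and 11780 TPM at E16.5F.

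Genes that tether telomeres to the nuclear envelope gave 4 calls among 7 tested, all higher (57.1%, against 18.4% of all genes), with a median of 1.01. After median-of-ratios scaling 1 of them, Terb1, was called. Terb1, a subunit of the complex that binds telomeres to the inner nuclear membrane, was listed at 42.1, 28.8 and 41.1 TPM at E13.5F and at 133, 139 and 161 TPM at E16.5F (log2 fold change 1.94, SE 0.16, adjusted p = 1.1e-05). All 3 E16.5F samples were above 130 TPM and all 3 E13.5F samples under 43 TPM. The other calls on TPM were Majin, Spdya and Cdk2, named here after their values were seen, with log2 fold changes of 1.09, 1.11 and 1.01.

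Of 9 tested genes for double-strand break formation, 4 rose (44.4%, against 18.4% of all genes) and 1 fell (11.1%, against 9.78%), around a median of 0.94 (4 and 2 after median-of-ratios scaling). Spo11, the enzyme that cuts the DNA, was listed at 24.1, 20.1 and 25.7 TPM at E13.5F and at 273, 294 and 309 TPM at E16.5F (log2 fold change 3.60, SE 0.13, adjusted p = 8.4e-08). Ankrd31, which organises break sites, among them those of the pseudoautosomal region, was listed at 12.3, 13.0 and 15.0 TPM at E13.5F and at 108, 97.3 and 105 TPM at E16.5F (log2 fold change 2.86, SE 0.14, adjusted p = 5.1e-07). Both genes were several-fold higher in each E16.5F sample than in any E13.5F sample. Mei1, needed for breaks to form, was listed at 13.4, 13.2 and 17.2 TPM at E13.5F and at 41.1, 47.4 and 61.3 TPM at E16.5F (log2 fold change 1.69, adjusted p = 6.7e-05). Prdm9, the histone methyltransferase that places breaks at hotspots, was listed at 29.7, 27.3 and 30.1 TPM at E13.5F and at 67.5, 75.1 and 80.5 TPM at E16.5F (log2 fold change 1.32, adjusted p = 3.2e-05). Neither gene's groups overlapped. Mei4, a partner of the break machinery, went the other way and was listed at 34.2, 32.2 and 36.5 TPM at E13.5F and at 4.83, 7.04 and 13.3 TPM at E16.5F (log2 fold change -2.01, SE 0.29, adjusted p = 0.00034). Its highest E16.5F value was still below its lowest E13.5F value.

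Strand exchange, in which a broken end searches for its homolog, had 7 rises and 2 falls among 16 tested genes, against 18.4% and 9.78% of all genes, with a median of 0.80 (5 and 3 after median-of-ratios scaling). Dmc1, the meiotic recombinase, was listed at 92.3, 92.8 and 91.4 TPM at E13.5F and at 135, 147 and 153 TPM at E16.5F and was not called (log2 fold change 0.65, adjusted p = 0.00058). Dmc1 was higher in every E16.5F sample, with a change under the fold limit on TPM. Spata22, which works with MEIOB on single-stranded DNA, was listed at 12.8, 10.3 and 17.5 TPM at E13.5F and at 88.4, 103 and 94.99 TPM at E16.5F (log2 fold change 2.75, SE 0.19, adjusted p = 3.3e-06). Meiob was listed at 89.2, 97.3 and 91.8 TPM at E13.5F and at 305, 282 and 317 TPM at E16.5F (log2 fold change 1.69, SE 0.10, adjusted p = 1.2e-06). Both partners rose in every E16.5F sample without overlap. Rpa1, the large subunit of the general single-strand binding protein, fell and was listed at 114, 108 and 127 TPM at E13.5F and at 32.2, 37.8 and 36.6 TPM at E16.5F (log2 fold change -1.68, SE 0.13, adjusted p = 5.8e-06).

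Crossover formation gave 10 rises and 0 falls among 16 tested genes, around a median of 1.09, against 18.4% of all genes that rose (7 and 0 after median-of-ratios scaling). Rnf212, the ligase-like factor that stabilises crossover sites, was listed at 28.3, 24.3 and 25.3 TPM at E13.5F and at 214, 257 and 269.6 TPM at E16.5F (log2 fold change 3.20, SE 0.13, adjusted p = 1.9e-07). Msh4 was listed at 11.5, 12.7 and 15.3 TPM at E13.5F and at 52.2, 56.9 and 65.0 TPM at E16.5F (log2 fold change 2.06, SE 0.17, adjusted p = 8.6e-06), and Msh5, with which it forms a clamp on recombination intermediates, at 18.1, 18.3 and 15.8 TPM at E13.5F and at 55.7, 66.8 and 62.2 TPM at E16.5F (log2 fold change 1.76, SE 0.15, adjusted p = 1e-05). These 3 genes had no overlap, and their E16.5F replicates stayed within a narrow band. Hfm1, a helicase of the same pathway, was listed at 34.1, 26.6 and 34.4 TPM at E13.5F and at 112, 115 and 132 TPM at E16.5F (log2 fold change 1.89, adjusted p = 5.8e-06). Mlh3, which cuts mature intermediates, was listed at 5.95, 5.01 and 7.15 TPM at E13.5F and at 23.1, 18.0 and 22.8 TPM at E16.5F (log2 fold change 1.67, adjusted p = 0.00013). Tex11, an X-linked crossover gene, was listed at 119, 107 and 119 TPM at E13.5F and at 228, 234 and 249 TPM at E16.5F (log2 fold change 1.04, SE 0.10, adjusted p = 2.2e-05). That rise was close to the fold limit: it was 0.77 after median-of-ratios scaling, 0.97 after quantile normalization, 0.88 on FPKM, 0.99 without E13.5F replicate 2 and just under 1 without E16.5F replicate 3, and was not called in these.

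Checkpoint and oocyte death genes stood near the background, with 3 of 18 called higher (18.4% of all genes), 1 called lower and a median of 0.03 (1 and 2 after median-of-ratios scaling). Pmaip1, a BH3-only killer protein gene, was listed at 0.190, 0.241 and 1.51 TPM at E13.5F and at 14.5, 15.2 and 15.5 TPM at E16.5F (log2 fold change 3.37, SE 0.32, adjusted p = 2.4e-05). Trp53 was listed at 116, 96.6 and 105 TPM at E13.5F and at 34.3, 42.7 and 28.8 TPM at E16.5F (log2 fold change -1.57, SE 0.16, adjusted p = 3.5e-05). Pmaip1 was near 15 TPM in each E16.5F sample and under 2 TPM in each E13.5F sample, and Trp53 lost most of its level in all 3. Trp63, whose product guards the genome of arrested oocytes, was listed at 0.422, 0.365 and 0.753 TPM at E13.5F and at 1.39, 1.58 and 1.89 TPM at E16.5F, with no call (log2 fold change 0.80, adjusted p = 0.046). Chek2, the kinase upstream of it, was listed at 22.6, 19.2 and 28.1 TPM at E13.5F and at 17.9, 12.4 and 5.28 TPM at E16.5F, with no call (log2 fold change -1.04, adjusted p = 0.033). Chek2 was called lower when the threshold on the adjusted p was 0.05 and when all 10 PGC groups were fitted together.

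Oocyte transcription factors had the highest median of the lists of germ cell genes, 2.75, with 6 of 8 tested members called higher (75.0%, against 18.4% of all genes) and 1 called lower under each scaling tried. Sohlh1, which directs early oocyte growth, was listed at 2.53, 3.5 and 2.97 TPM at E13.5F and at 331, 336 and 291 TPM at E16.5F (log2 fold change 6.33, SE 0.15, adjusted p = 1.2e-08). Nobox, which keeps primordial follicles developing, was listed at 0.909, 1.15 and 2.50 TPM at E13.5F and at 113, 113 and 90.5 TPM at E16.5F (log2 fold change 5.45, SE 0.25, adjusted p = 3.2e-07). Lhx8, its LIM-homeobox partner, was listed at 3.45, 3.31 and 4.85 TPM at E13.5F and at 132, 156 and 135 TPM at E16.5F (log2 fold change 4.87, SE 0.18, adjusted p = 8.7e-08). All of these went from under 5 TPM in every E13.5F sample to above 90 TPM in every E16.5F sample. Figla, required for primordial follicles to form, was listed at 75.4, 89.8 and 78.0 TPM at E13.5F and at 823, 795 and 735 TPM at E16.5F (log2 fold change 3.26, SE 0.10, adjusted p = 2.9e-08). It differed from the others by being expressed well above background at E13.5F. Sohlh2, the relative and partner of Sohlh1, was listed at 349, 264 and 304 TPM at E13.5F and at 156, 153 and 142 TPM at E16.5F (log2 fold change -1.01, SE 0.12, adjusted p = 7.3e-05), a fall that was -0.91 without E13.5F replicate 1 and -0.97 without E16.5F replicate 3 and not called in these.

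The products of later oocytes were mostly not yet measured at a testable level: 9 of 23 oocyte and maternal-effect genes passed the filter, of which 1 rose and 1 fell (11.1% each, against 18.4% and 9.78% of all genes) around a median of 0.92 (1 and 2 after median-of-ratios scaling). Gdf9, the oocyte growth factor for granulosa cells, was listed at 0, 0.596 and 0 TPM at E13.5F and at 4.91, 1.53 and 0.959 TPM at E16.5F, with no call (log2 fold change 1.40, adjusted p = 0.024). Gdf9 was called higher when the threshold on the adjusted p was 0.05 and when all 10 PGC groups were fitted together. Zp3, a zona pellucida gene, stayed below the filter at 0.0905, 1.13 and 0.831 TPM at E13.5F and at 1.54, 0.231 and 0.181 TPM at E16.5F and was not tested. Tle6, a component of the subcortical maternal complex, was listed at 18.4, 15.3 and 15.2 TPM at E13.5F and at 61.8, 78.3 and 60.2 TPM at E16.5F (log2 fold change 1.96, SE 0.16, adjusted p = 9.6e-06). Neither gene was particular to female PGCs: at E16.5M Zp3 was listed at 32.5, 36.15 and 32.3 TPM and Tle6 at 229, 214 and 205 TPM. Summed over the list, the mean was 353 TPM at E16.5F and 421 TPM at E16.5M. Nlrp14 was listed at 2.82, 2.10 and 2.81 TPM at E13.5F and at 0.221, 0.468 and 0.619 TPM at E16.5F (log2 fold change -1.32, adjusted p = 0.0042), and this low-level fall lost its call on FPKM (log2 fold change -0.90), without the filter (adjusted p = 0.027), with a minimum of 5 TPM, at which it was not tested, with a replicate block (adjusted p = 0.012) and without any single E13.5F replicate.

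Of 11 tested genes of dictyate arrest and M-phase control, 2 were called higher (18.2%, against 18.4% of all genes) and 4 lower (36.4%, against 9.78%), around a median of -0.06 (2 lower without E16.5F replicate 3). Ccnb3, an X-linked B-type cyclin gene of meiotic cells, was listed at 11.7, 6.54 and 12.2 TPM at E13.5F and at 216, 223 and 232 TPM at E16.5F (log2 fold change 4.38, SE 0.21, adjusted p = 4e-07). Ccnb1, the cyclin that drives mitotic entry, was listed at 315, 307 and 329 TPM at E13.5F and at 21.6, 18.4 and 24.3 TPM at E16.5F (log2 fold change -3.83, SE 0.13, adjusted p = 5e-08). These cyclin genes thus traded places: Ccnb1 was the more abundant in all 3 E13.5F samples and Ccnb3 in all 3 E16.5F samples, on the length-scaled TPM scale.

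In the piRNA pathway, which silences transposons in germ cells, 10 of 21 tested genes rose (47.6%, against 18.4% of all genes) and 0 fell, around a median of 0.94 (7 and 0 after median-of-ratios scaling). Tdrd9, a helicase gene of the pathway, was listed at 4.97, 2.19 and 4.18 TPM at E13.5F and at 72.5, 89.1 and 101 TPM at E16.5F (log2 fold change 4.25, SE 0.25, adjusted p = 1.3e-06). Mael was listed at 538, 492 and 540.4 TPM at E13.5F and at 1267, 1213 and 1245 TPM at E16.5F (log2 fold change 1.25, SE 0.07, adjusted p = 1.2e-06), with a log2 fold change of 0.98 after median-of-ratios scaling, where it was not called. Neither gene's groups overlapped. Ddx4, the germ cell helicase Vasa, was not called at a log2 fold change of -0.51.

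In DNA methylation and demethylation, 1 of 8 tested genes rose and 3 fell, against 18.4% and 9.78% of all genes, around a median of 0.39. Tet3 was listed at 1.16, 1.46 and 1.21 TPM at E13.5F and at 12.9, 15.9 and 15.0 TPM at E16.5F (log2 fold change 2.77, SE 0.23, adjusted p = 1e-05), and Tet1, the related dioxygenase, at 6.35, 7.71 and 10.3 TPM at E13.5F and at 0.306, 0.432 and 0.443 TPM at E16.5F (log2 fold change -2.69, SE 0.28, adjusted p = 4e-05). Tet1 was the higher of the pair in every E13.5F sample, and Tet3 in every E16.5F sample. Dnmt1, the maintenance methyltransferase, was listed at 72.2, 44.6 and 71.9 TPM at E13.5F and at 25.2, 26.6 and 32.6 TPM at E16.5F (log2 fold change -1.11, SE 0.20, adjusted p = 0.0014), and its fall was not called without the filter on low values (adjusted p = 0.014), without E13.5F replicate 1 (log2 fold change -0.99) or without E13.5F replicate 3, where it was just inside the fold limit. Uhrf1, which guides DNMT1 to new DNA, was listed at 58.7, 53.8 and 68.8 TPM at E13.5F and at 83.5, 116 and 115 TPM at E16.5F and not called (log2 fold change 0.78, adjusted p = 0.0026). The de novo enzyme gene Dnmt3a was listed at 10.6, 8.37 and 11.6 TPM at E13.5F and at 26.0, 16.3 and 16.7 TPM at E16.5F and not called (log2 fold change 0.87, adjusted p = 0.01).

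The machinery of DNA replication had 14 falls and 1 rise among 30 tested genes, with a median of -0.92 (18 and 0 after median-of-ratios scaling), against 9.78% of all genes that fell. Tyms, which makes thymidylate for DNA synthesis, was listed at 53.2, 55.1 and 51.4 TPM at E13.5F and at 7.20, 6.501 and 7.30 TPM at E16.5F (log2 fold change -2.76, SE 0.16, adjusted p = 1.1e-06). Gins2, a subunit of the replicative helicase, was listed at 10.7, 11.8 and 9.76 TPM at E13.5F and at 26.1, 30.0 and 24.7 TPM at E16.5F (log2 fold change 1.25, SE 0.17, adjusted p = 0.00024). Tyms kept only a small part of its level in each E16.5F sample, while Gins2 was higher in each of them. Mcm5, a helicase subunit, was listed at 223, 219 and 253 TPM at E13.5F and at 177, 193 and 220.0 TPM at E16.5F, with overlapping groups and no call (log2 fold change -0.24, adjusted p = 0.095). Its partners Mcm2, Mcm3, Mcm4, Mcm6 and Mcm7, named after their values were seen, fell with log2 fold changes of -2.07, -1.34, -1.66, -1.91 and -2.14.

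For mitosis and proliferation, 9 of 25 tested genes fell (36.0%, against 9.78% of all genes) and 0 rose, around a median of -0.68 (12 and 0 after median-of-ratios scaling). Ccna2, the S-phase and M-phase cyclin, was listed at 187, 172 and 202 TPM at E13.5F and at 39.8, 48.5 and 46.3 TPM at E16.5F (log2 fold change -2.04, SE 0.12, adjusted p = 1.5e-06). Mki67, the common proliferation marker, was listed at 10.1, 6.59 and 11.8 TPM at E13.5F and at 9.41, 10.4 and 10.9 TPM at E16.5F, with overlapping groups and no call (log2 fold change 0.13, adjusted p = 0.66). Ccna2 was lower in every E16.5F sample, while the Mki67 values of the stages were intermixed. Among G1/S cyclins and E2F genes 6 of 20 tested fell and 2 rose, against 9.78% and 18.4% of all genes, with a median of -0.31. Ccnd1, a cyclin that drives cells through G1, was listed at 60.9, 70.5 and 71.0 TPM at E13.5F and at 7.32, 4.11 and 3.26 TPM at E16.5F (log2 fold change -3.59, SE 0.25, adjusted p = 3.1e-06). Cdkn1c, an inhibitor of cyclin-dependent kinases, was listed at 161, 138 and 144 TPM at E13.5F and at 319, 497 and 462 TPM at E16.5F (log2 fold change 1.5, SE 0.16, adjusted p = 4e-05). Ccnd1 was low and Cdkn1c high in every E16.5F sample, without overlap.

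Most glycolysis genes fell, with 13 of 19 tested called lower (68.4%, against 9.78% of all genes), 0 called higher and a median of -1.56 (15 and 0 after median-of-ratios scaling). Aldoc, an aldolase gene, was listed at 20.2, 14.2 and 21.2 TPM at E13.5F and at 1.48, 2.26 and 0 TPM at E16.5F (log2 fold change -3.27, SE 0.41, adjusted p = 0.00013). Gapdh, chosen after its values were seen, was listed at 675, 706 and 891 TPM at E13.5F and at 142, 149 and 126 TPM at E16.5F (log2 fold change -2.43, adjusted p = 5.3e-07). Ldha, which turns pyruvate into lactate and was also chosen after its values were seen, was listed at 146, 147 and 151 TPM at E13.5F and at 37.1, 51.8 and 39.0 TPM at E16.5F (log2 fold change -1.79, adjusted p = 7.6e-06). All 3 genes were lower in each E16.5F sample than in any E13.5F sample, and Aldoc was listed at 0 in E16.5F replicate 3. Summed over the list, TPM was 3343, 3101 and 3579 TPM at E13.5F and 1025, 1153 and 943 TPM at E16.5F.

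**Figure D3:**
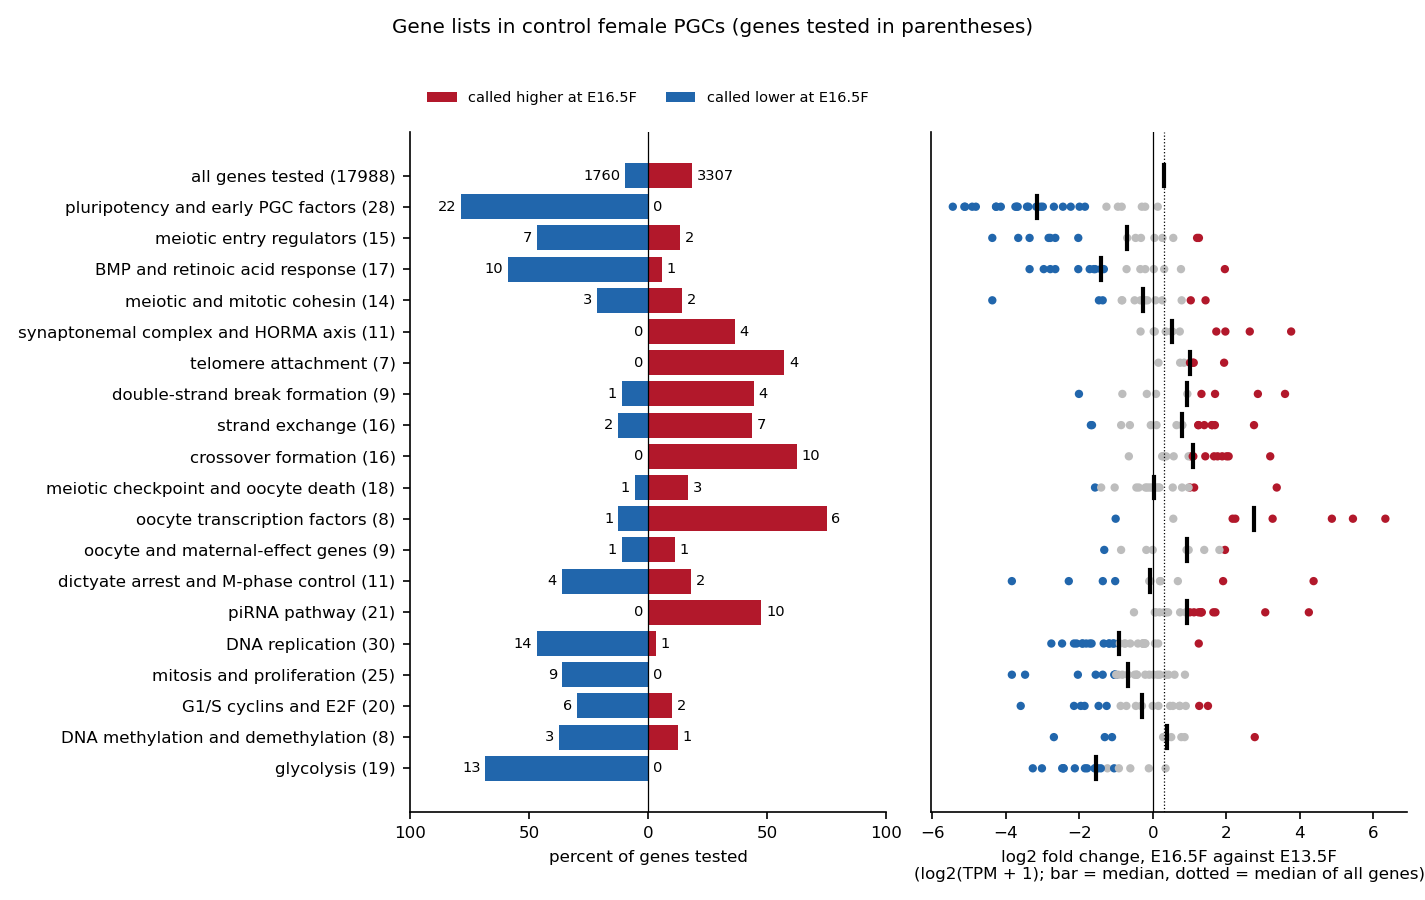
Left, percent of tested genes called higher (red) or lower (blue) at E16.5F in each list (x axis), with gene counts beside the bars. Right, the log2 fold change of each tested gene on log2(TPM + 1) (x axis), with a bar at the list median and a dotted line at 0.31, the median of all genes; the medians run from -3.15 for pluripotency and early PGC factors to 2.75 for oocyte transcription factors.

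Genes of the X chromosome had a share of rises near that of autosomes and a larger share of falls. Of 737 X-linked genes tested, 144 rose (19.5%) and 96 fell (13.0%), with a median of 0.21 (109 and 136 after median-of-ratios scaling). Of 17217 autosomal genes 3159 rose (18.3%) and 1660 fell (9.64%), with a median of 0.32 (2409 and 2261). Female germ cells carry an X chromosome that was silenced earlier and is reactivated in PGCs, and the difference between X-linked and autosomal genes was not tested.

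The most abundant transcripts at both stages were those of ribosomal proteins, mitochondria and housekeeping genes, together with Sycp3 at E16.5F. Rpl13, a ribosomal protein gene, was listed at 4710, 4914 and 5296 TPM at E13.5F and at 3958, 3656 and 3765 TPM at E16.5F and was not called (log2 fold change -0.39, adjusted p = 0.00053). The mitochondrial gene mt-Cytb was listed at 6201, 5239 and 5593 TPM at E13.5F and at 7324, 6737 and 7035 TPM at E16.5F and was not called (log2 fold change 0.31, adjusted p = 0.0036). Ftl1, the ferritin light chain gene that stores iron, was listed at 2497, 2865 and 2547 TPM at E13.5F and at 5856, 5960 and 5371 TPM at E16.5F (log2 fold change 1.12, adjusted p = 1.8e-06), with 0.86 after median-of-ratios scaling and 0.97 on FPKM, where it was not called.

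Values at E12.5, where the sexes were not separated by the label, are given as a description without a test. These samples held male RNA: the Y-linked gene Eif2s3y had a mean of 192 TPM there, against 156 TPM at E13.5M. They are therefore not an earlier point of a female series. Stra8 was listed at 9.31, 16.1 and 11.6 TPM at E12.5 and Rec8 at 3.92, 3.03 and 3.25 TPM, under the E13.5F level of both. Nanog was listed at 85.0, 75.3 and 85.0 TPM and Dppa3 at 5174, 5922 and 5509 TPM at E12.5, above E13.5F and E16.5F. Sycp3 at 116, 135 and 125 TPM, Spo11 at 4.15, 4.69 and 3.91 TPM and Figla at 0.978, 0.954 and 0.637 TPM were below E13.5F and E16.5F. Ccnb1 was listed at 937, 941 and 937 TPM at E12.5, above E13.5F, which was itself above E16.5F.

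Male control PGCs, which stop in mitotic arrest and do not enter meiosis in the fetus, show which stage differences differ by sex. The interaction in limma tested the female change from E13.5 to E16.5 minus the male change in 22654 genes. Of these, 3604 were larger (15.9%) and 6270 smaller (27.7%) in females. Larger and smaller give the sign of that difference, so a steeper female fall counts as smaller. Over the 17988 genes tested in females the calls were about even, with 3551 larger and 3458 smaller, so the excess of smaller calls lay in genes that passed the filter through male samples only. Erythroid markers summed to 579, 309.5 and 255 TPM at E16.5M and 76.2, 2.02 and 2.30 TPM at E13.5M. Leukocyte sums were 198.5, 213 and 220 TPM against 16.1, 12.4 and 14.0 TPM. Pregranulosa markers went the other way, with means of 136 TPM at E16.5M and 173 TPM at E13.5M. The part of other cell types in the differences between the sexes was not tested. Stra8 was listed at 8.73, 13.0 and 11.7 TPM at E13.5M and at 32.4, 30.0 and 43.1 TPM at E16.5M. Its log2 fold change was -3.66 in females and 1.57 in males, a difference of -5.24 (SE 0.22, adjusted p = 4.1e-09). Rec8 was listed at 4.09, 4.37 and 4.05 TPM at E13.5M and at 19.7, 24.2 and 21.7 TPM at E16.5M. Female PGCs fell and male PGCs rose for Rec8, with a difference of -6.51 (SE 0.55, adjusted p = 8.5e-07). In both genes the female samples at E13.5F were far above every male sample, and at E16.5F Stra8 was still the higher in females while Rec8 was higher in males.

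In the synaptonemal complex and HORMA axis the female change was larger in 6 of 11 genes and smaller in 1. Among oocyte transcription factors the counts were 5 and 1 of 8. Of the 17988 genes tested in females, 3551 were larger and 3458 smaller. Other lists went the other way, with 0 larger and 10 smaller among 21 piRNA pathway genes, and 0 and 10 among 15 regulators of meiotic entry. Glycolysis had 1 and 10 of 19, and double-strand break formation 3 of each among 9. The median log2 fold changes in females and males were -1.56 and -0.02 for glycolysis and 0.94 and 2.08 for the piRNA pathway. By these medians, smaller meant a steeper female fall for glycolysis and a weaker female rise for the piRNA pathway. Sycp1 had a log2 fold change of 2.64 in females and -0.09 in males, a difference of 2.73 (SE 0.11, adjusted p = 2.8e-09). Sycp3, with 1.73 and 0.83, had a difference of 0.89 (SE 0.11, adjusted p = 2.6e-05) that was not called. Tex11 was listed at 55.7, 60.6 and 55.4 TPM at E13.5M and at 19.0, 18.3 and 16.52 TPM at E16.5M, so it fell in males where it rose in females, with a difference of 2.66 (SE 0.12, adjusted p = 5.9e-09). Nobox, with 5.45 and 2.54, and Lhx8, with 4.87 and 1.09, rose more in females, with differences of 2.90 (SE 0.31, adjusted p = 5.7e-06) and 3.78 (SE 0.22, adjusted p = 3.7e-08). Sohlh1 rose in both sexes, reaching 443, 431 and 430.5 TPM at E16.5M, with a difference of -1.76 (SE 0.18, adjusted p = 4.2e-06) that made the female rise the smaller. Figla rose in both with a difference of -0.53 (SE 0.24, adjusted p = 0.067) that was not called. Nanog fell in both sexes, with -4.14 and -4.01 and a difference of -0.12 (SE 0.33, adjusted p = 0.76) that was not called. Tfap2c fell more steeply in females, a difference of -3.02 (SE 0.36, adjusted p = 1.3e-05) that counts as smaller. Aldoc fell in females and rose in males (3.29), a difference of -6.55 (SE 0.47, adjusted p = 2.2e-07).

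**Figure D4:**
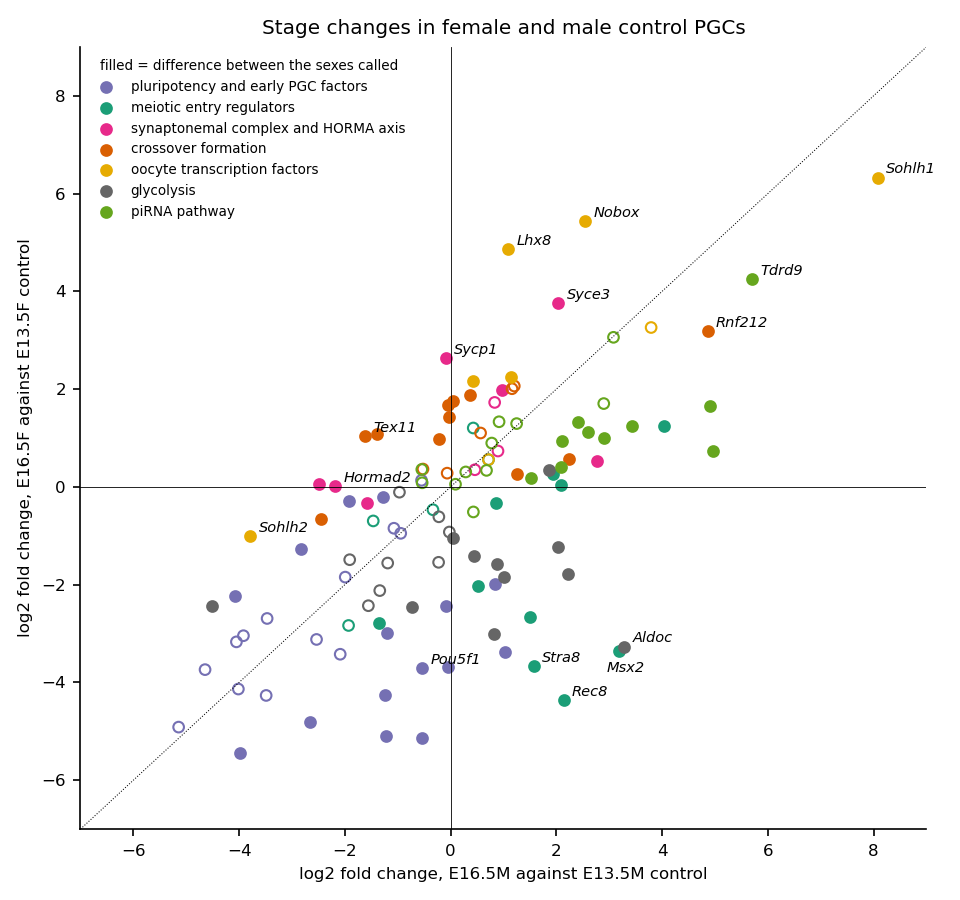
Log2 fold change of E16.5M against E13.5M (x axis) and of E16.5F against E13.5F (y axis) control PGCs on log2(TPM + 1), 1 point per tested gene of 7 lists, filled where the difference between the sexes was called. The dotted line marks equal changes; Stra8 (1.57, -3.66) and Rec8 (2.14, -4.37) lie at the lower right and Tex11 (-1.62, 1.04) at the upper left.

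The list of male germ cell fate genes gave 4 tested members of 11, of which Tex101 alone was called, which is 25.0% against 18.4% of all genes. Tex101, a germ cell surface protein gene, was listed at 936, 972 and 974 TPM at E13.5F and at 2572, 2299 and 2467 TPM at E16.5F in females (log2 fold change 1.35, adjusted p = 5.1e-07) and at 1037, 1035 and 1030 TPM at E16.5M. Its level at E16.5F was above the male level in every sample, but its stage change was larger in males, at 4.23, with a difference of -2.88 (SE 0.11, adjusted p = 2.8e-09) called. The other tested members were not called, and 7 members did not pass the filter in female PGCs.

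The same stage contrast in IUHG PGCs used 6 other samples. Of 19230 genes tested there, 2936 rose (15.3%) and 2001 fell (10.4%). Genes that rose in both numbered 1832, which is 55.4% of the control list and 62.4% of the IUHG list. Genes that fell in both numbered 1133, which is 64.4% of the control list and 56.6% of the IUHG list. Calls in opposite directions were found for 2 of the genes that rose and 3 of the genes that fell in control PGCs. The sign was the same in 3034 of the 3144 rising and 1699 of the 1744 falling control genes that were tested in IUHG PGCs, so most of those not shared differed in the call and not in direction. Stra8 fell in both, with -3.66 in control and -1.35 in IUHG PGCs, and Sycp3 rose in both, with 1.73 and 4.23. In the test of the calling on simulated data the IUHG fit found fewer changes than the control fit. Why some genes were called in control only was not tested. Whether these changes differed between control and IUHG was not tested. The IUHG counts leaned on single samples: they were 1834 and 1225 without E13.5F IUHG replicate 2, 1522 and 1010 without E16.5F IUHG replicate 3, and 1328 genes fell without E13.5F IUHG replicate 1.

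Markers of other ovarian cell types were low beside those of germ cells, and some moved with stage. Summed TPM of 10 markers of germ cells was 5471, 5670 and 5745 TPM at E13.5F and 3521, 3212 and 3231 TPM at E16.5F, a list that holds 5 genes that fell, among them Pou5f1 and Dppa3, and Mael, which rose on TPM (0 and 5 called higher and lower after median-of-ratios scaling, against 1 and 5). Of 12 tested pregranulosa markers 3 rose and 1 fell (25.0% and 8.33%, near the 18.4% and 9.78% of all genes), with summed TPM of 58.4, 76.9 and 47.6 TPM at E13.5F and 65.4, 89.4 and 81.4 TPM at E16.5F. The most abundant were Gng13 at E13.5F, at 34.7, 48.9 and 16.54 TPM, and Amhr2 at E16.5F, at 13.0, 18.5 and 14.7 TPM, while the defining factor Foxl2 stayed under 3 TPM. Sertoli markers summed to 41.9, 45.4 and 37.0 TPM at E13.5F and 36.0, 44.4 and 33.6 TPM at E16.5F, with 2 of 5 tested called higher and 0 lower, against 18.4% and 9.78% of all genes (2 and 1 after median-of-ratios scaling, where Aard was called lower at -1.24) and Aard the most abundant, and Amh was listed at 0 in all E13.5F samples.

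Interstitial and mesenchymal markers summed to 22.1, 18.6 and 28.7 TPM at E13.5F and 71.2, 47.0 and 92.9 TPM at E16.5F, with 4 of 8 tested called higher and Dcn the most abundant. Surface epithelium markers summed to 3.20, 3.84 and 4.59 TPM at E13.5F and 35.7, 46.0 and 27.3 TPM at E16.5F, with 4 of 5 tested called higher and Krt19 and Lgals7 the most abundant. Leukocyte markers summed to 12.3, 4.67 and 12.8 TPM at E13.5F and 52.7, 118 and 35.5 TPM at E16.5F, with 3 of 7 tested called higher. C1qb, the largest of these rises, was listed at 1.38, 0.139 and 0.166 TPM at E13.5F and at 15.6, 14.2 and 17.2 TPM at E16.5F (log2 fold change 3.5, adjusted p = 2e-05). Lyz2, which was not called, was at 66.4 TPM in E16.5F replicate 2, and the defining gene Ptprc stayed under 1 TPM. Of all genes 18.4% were called higher. In these 3 lists every E16.5F sum was above every E13.5F sum. After median-of-ratios scaling 3, 3 and 2 of their members were called higher, and without E13.5F replicate 1 the first 2 lists had 1 and 2 calls.

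Endothelial markers summed to 89.0, 69.6 and 92.4 TPM at E13.5F and 22.9, 31.7 and 19.6 TPM at E16.5F, with 2 of 4 tested called lower and 1 higher, against 9.78% and 18.4% of all genes. The one called higher was Tek, listed at 0.0102, 0.403 and 0.275 TPM at E13.5F and at 6.47, 10.1 and 7.66 TPM at E16.5F (log2 fold change 2.88, adjusted p = 3.5e-05). At E13.5F most of this sum was Pecam1, which PGCs also express, at 67.8, 50.4 and 69.1 TPM at E13.5F and 10.7, 17.0 and 8.36 TPM at E16.5F, while the defining genes Kdr and Tie1 were under 1 TPM in all samples. Erythroid markers summed to 64.8, 36.9 and 0.267 TPM at E13.5F and 5.71, 37.9 and 6.14 TPM at E16.5F, with 0 of 5 tested called and overlapping groups. The higher interstitial, surface epithelium and leukocyte sums, and Tek, moved with stage alongside the rises described above, and their part in those rises was not tested.

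**Figure D5:**
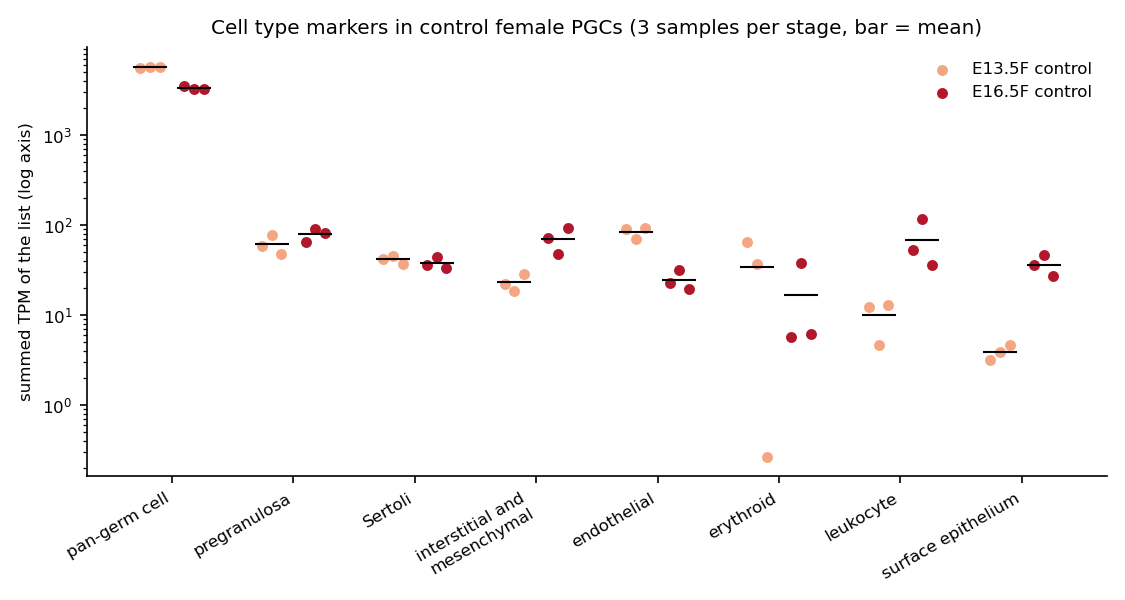
Summed TPM on a log axis (y axis) of 8 marker lists (x axis) in control female PGCs, with 1 point per sample, 3 per stage, and a bar at the mean. The sums of germ cell markers, at 3212 TPM or more in all 6 samples, stand well over those of the other cell types, which stay under 120 TPM.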

How the data were processed

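RNA-seq libraries were made with Smart-seq2-type amplification and Tn5 tagmentation and sequenced as paired reads. The authors trimmed reads with Trim Galore, aligned them to Mm39 with STAR and deposited gene tables of StringTie. In the deposited tables the authors' run had scaled TPM per length and to a fixed total and FPKM per length and mapped fragments, and had left coverage unscaled. The authors' counts (featureCounts, DESeq2) were not used here, so counting error per gene is unknown. Values were summed per gene ID, of which there were 57126. Where IDs shared a symbol, the most abundant was taken.

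Genes with a mean of at least 1 TPM in a compared group were fitted on log2(TPM + 1) with limma 3.58.1 in R 4.3.3 (lmFit, eBayes with a trend, two-sided) and called where the Benjamini-Hochberg p was under 0.01 and the log2 fold change was past 1 in either direction. Stage was the only term, and the difference between the sexes was an interaction over 12 control samples. Tables and figures were made in Python 3.11.15 with pandas 2.3.3, numpy 2.4.6, matplotlib 3.10.9 and scipy 1.17.1. The calling was tested on simulated data.

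Of 420 list members 417 were matched and 363 tested. The members and lists were chosen with earlier results of these data known. Named genes are a set of meiotic, pluripotency, oocyte and cell cycle genes taken whatever their change, the 6 rising and 6 falling with the lowest p among called genes of at least 10 TPM without overlap, the largest called rise and fall of each list, the most abundant marker of each other cell type and the 5 most abundant genes of each stage. Other genes named in the texts are list members picked with their values known. Some named genes are not reported here. Alternatives changed the unit, pseudocount, filter, scaling, groups in the fit, variance trend, threshold, replicate block and the samples left in.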

Additional observations from a re-analysis of the deposited data

Results flagged for a closer look

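In control PGCs, Stra8, Rec8 and Tex11 moved in opposite directions between E13.5 and E16.5 in the sexes, with every stage change called and the difference itself called by the limma interaction over 12 samples. Stra8 had a log2 fold change of -3.66 in females and 1.57 in males, a difference of -5.24 (adjusted p = 4.1e-09). Rec8 had -4.37 and 2.14, a difference of -6.51 (adjusted p = 8.5e-07). Tex11 had 1.04 and -1.62, a difference of 2.66 (adjusted p = 5.9e-09). In each of these all 3 samples of a stage lay on the same side of all 3 of the other stage in both sexes. These are examples: of the 3307 genes called higher and 1760 called lower in females, 206 and 371 had the opposite call in males with the difference called. Of the 15 regulators of meiotic entry, Stra8, Rec8 and 2 others had opposite calls: Msx2, at -3.35 and 3.18 (difference -6.53), and Gata2, at -2.65 and 1.5 (difference -4.16). Msx1 and Dmrt1 fell and Dmrtc2 rose in both sexes. The female rise of Tex11 was under the fold limit after other scalings. The cause was not tested.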

How the results depend on the processing

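In control PGCs, the genes called higher and lower numbered 3307 and 1760. Across the alternatives they ranged from 2226 (no filter) to 4069 (adjusted p under 0.05) and from 1165 (no filter) to 2543 (quantile normalization). The count of 1165 was the only one more than 1.5 times away, with more genes tested. Leaving out a replicate gave 2600 to 3350 higher and 1344 to 1628 lower. The counts for the difference between the sexes, 3604 and 6270, went from 3336 to 3840 and from 5883 to 6325 without a female replicate. Male replicates were not left out. The IUHG counts, 2936 and 2001, went from 1522 to 3307 and from 1010 to 1878, moved most by leaving out E13.5F IUHG replicate 2 (1834 and 1225), E16.5F IUHG replicate 3 (1522 and 1010) and E13.5F IUHG replicate 1 (1328 lower). The cause was not tested.

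With replicate numbers as a replicate block, 3157 genes were higher and 1695 lower in control PGCs. Deviations of samples with the same number correlated across genes from -0.0382 to 0.0159, and those with other numbers from -0.0416 to 0.0574. These values gave no sign that the numbers pair samples. With 3 samples per stage they cannot exclude shared handling, which the labels do not give.

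Of 102 tested named genes, 84 kept their call under every alternative in which they were tested, and 78 kept both call and sign. Some alternatives did not test all 102, such as the higher filter and the fit without mitochondrial genes. Sign changed only in genes that were not called: on FPKM, Hormad2 (-0.12), Mki67 (-0.0058) and mt-Co1 (-0.051); after median-of-ratios scaling, Meiosin (-0.001), Hormad2 (-0.24), Stag3 (-0.0065), Mki67 (-0.11) and mt-Co1 (-0.17); after quantile normalization, Hormad2 (-0.098) and Mki67 (-0.14); with a pseudocount of 0.1, Hba-a1 (0.38). Leaving out a replicate gave ranges across 0 for Hormad2 (-0.0147 to 0.0542), Mki67 (-0.0876 to 0.29), Hba-a1 (-1.88 to 0.32) and mt-Co1 (-0.0591 to 0.25). The cause was not tested.

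Aligned bases (3.44 to 5.80 gigabases) limit the values of genes near 1 TPM, for which counts were not analysed here.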
